A study of Arabidopsis thaliana with 11 samples.

Results

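Seeds of Arabidopsis store nitrogen and sulphur mainly in proteins of 2 families. Cruciferins are 12S globulins and napin-type proteins are 2S albumins. Both are made as precursors on the endoplasmic reticulum, sorted to protein storage vacuoles, cut by vacuolar processing enzymes and broken down at germination. Their genes are best known from the maturing embryo, where B3 domain regulators such as ABI3 and FUS3 bind RY elements and bZIP factors bind ACGT-containing elements, but the endosperm also transcribes them. The 9 genes described here were chosen by name, as 4 cruciferin loci and 5 2S albumin loci, and are 9 of the 27588 genes in the count table.

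RNA-seq was carried out on tissues dissected from F1 seeds 8 days after crossing. In h1/H1 seeds the mother was an insertion mutant of all linker histone genes, H1.1 (allele h1.1-1), H1.2 (allele h1.2-2) and H1.3 (allele h1.3-1), and the father was wild-type Ler. In H1/H1 seeds the mother was wild-type Col-0 and the father was also Ler. The h1/H1 seeds therefore still carried a paternal Ler copy of each H1 gene, and the mother's own seed coat was mutant as well. The comparison asks how transcription in the endosperm differs when the mother lacks H1.

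The libraries that could be tied to a group are called A, B and C for h1/H1 endosperm, D and E for H1/H1 endosperm, and F, for an H1/H1 library whose column is named embryo. They are 6 of the 11 samples of the series, and the H1/H1 endosperm group is 1 sample short of the number listed. Total counts per library lay between 13726579 and 20939575. The methods give independently isolated RNA sets, without saying whether they came from separate plants, so the p-values measure the spread between these libraries only. Markers did not bear out the name of F. The 8 embryo markers were low in every library and summed to 6.84 CPM in F, less than in any endosperm library. In F, CUC2 and DRNL had 0 counts, WOX2 had 3, and STM (12) and WOX5 (10) were higher than in any endosperm library. The 8 endosperm markers summed to 153 CPM in F, more than in any endosperm library, and 5 of them were highest there. PHE1 had 670 counts in F and at most 13 in any endosperm library, whereas ZOU was lowest in F (47.8 CPM) and AGL62 lay within the endosperm range (0.962 CPM). F is therefore called by its letter below and was kept out of the endosperm groups.

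The cruciferin genes are CRA1 (AT5G44120, minus strand, chr5:17756238-17758336), CRB (AT1G03880, plus strand, chr1:985751-988146), CRC (AT4G28520, plus strand, chr4:14087556-14089796) and AT1G03890 (plus strand, chr1:989198-991020), in TAIR10.1 coordinates. AT1G03890 is annotated by RefSeq only as an RmlC-like cupin, the fold that 12S globulins share. It begins 1051 bases after the end of CRB, with no other annotated gene between them. Of the 2S albumin genes, SESA1 (AT4G27140, chr4:13607329-13608031), SESA2 (AT4G27150, chr4:13609341-13610075), SESA3 (AT4G27160, chr4:13611796-13612563) and SESA4 (AT4G27170, chr4:13613596-13614283) follow each other on the plus strand. They lie within 6955 bases that hold no other annotated gene. SESA5 (AT5G54740, minus strand, chr5:22238358-22239187) lies apart. No annotated gene overlaps any of the 9.

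The clustered 2S albumins are close copies. Their coding sequences were identical at 82.6% (SESA1 and SESA3) to 94.1% (SESA2 and SESA3) of aligned positions, whereas SESA5 matched the others at 68.7% to 70.1%. Among the cruciferins identity was highest for CRA1 and CRB (76.4%), and AT1G03890 matched the other cruciferins at 62.5% to 62.9%. Reads could be divided between close copies by the counting. Words of 31 bases shared with another of the 9 genes made up 9.08% of those in SESA3, 5.67% in SESA2, 2.97% in SESA1 and 2.28% in SESA4, so these 4 levels are the less certain ones. The cruciferins and SESA5 shared none.

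The sequences just before the start of transcription are shown because they separate the 2S albumins from the cruciferins. Each is the 250 bases before the RefSeq gene start in TAIR10.1, 5′ to 3′ on the strand of the gene. Capitals mark CATGCA, the core of the RY element, on either strand (TGCATG on the other), and ACGT, the core bound by bZIP factors. SESA1, which behaved unlike the other members in the libraries, SESA2 and SESA3, the most abundant 2S albumins, SESA5, from outside the cluster, and the cruciferins CRA1 and CRC are given at chr4:13607079-13607328, chr4:13609091-13609340, chr4:13611546-13611795, chr5:22239188-22239437, chr5:17758337-17758586 and chr4:14087306-14087555, in that order.
SESA1: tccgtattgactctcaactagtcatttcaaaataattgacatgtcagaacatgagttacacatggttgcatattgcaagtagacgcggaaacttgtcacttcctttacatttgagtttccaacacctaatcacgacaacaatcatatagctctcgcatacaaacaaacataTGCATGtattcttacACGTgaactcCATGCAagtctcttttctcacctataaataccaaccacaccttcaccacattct
SESA2: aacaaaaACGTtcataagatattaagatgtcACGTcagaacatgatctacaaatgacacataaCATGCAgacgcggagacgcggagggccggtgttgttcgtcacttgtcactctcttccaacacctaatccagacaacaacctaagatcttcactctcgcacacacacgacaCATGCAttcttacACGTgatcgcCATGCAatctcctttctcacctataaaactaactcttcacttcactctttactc
SESA3: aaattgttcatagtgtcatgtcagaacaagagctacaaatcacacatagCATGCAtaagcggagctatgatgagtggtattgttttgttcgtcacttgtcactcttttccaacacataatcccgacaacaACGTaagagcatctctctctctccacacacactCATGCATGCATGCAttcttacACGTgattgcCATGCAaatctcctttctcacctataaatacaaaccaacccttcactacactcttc
SESA5: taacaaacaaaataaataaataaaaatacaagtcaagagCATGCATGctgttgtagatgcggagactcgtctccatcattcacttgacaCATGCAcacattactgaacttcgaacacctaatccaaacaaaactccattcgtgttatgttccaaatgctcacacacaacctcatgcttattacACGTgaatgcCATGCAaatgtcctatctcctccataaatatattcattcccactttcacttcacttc
CRA1: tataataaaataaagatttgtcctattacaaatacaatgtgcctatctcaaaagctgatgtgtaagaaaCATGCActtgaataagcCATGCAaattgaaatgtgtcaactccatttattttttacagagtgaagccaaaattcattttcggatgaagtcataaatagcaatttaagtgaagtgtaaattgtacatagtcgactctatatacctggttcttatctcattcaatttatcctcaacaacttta
CRC: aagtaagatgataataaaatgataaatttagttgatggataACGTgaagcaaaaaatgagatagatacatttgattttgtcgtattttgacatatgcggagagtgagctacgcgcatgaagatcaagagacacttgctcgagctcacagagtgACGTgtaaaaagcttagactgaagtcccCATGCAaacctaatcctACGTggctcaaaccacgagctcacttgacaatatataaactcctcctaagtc

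In each of the 5 2S albumins a G-box, CACGTG, was followed after 5 bases by CATGCA. The G-box began at position -65 in SESA1 and SESA2, -67 in SESA3 and SESA4 and -68 in SESA5, counted back from the transcript start. This arrangement was present in 9 of 27443 promoter windows of the same length, read on either strand (0.033%), and in none of the cruciferins. The 9 windows include those of the 5 2S albumins, and the spacing searched for is the one these share. SESA1 to SESA4 are close copies, so their matches are not independent and the share is a description. CATGCA alone, on either strand, occurred in 8 of the 9 members and in 8.43% of all windows, and at least 2 matches occurred in 6 members and 1.66% of all windows. Matches that overlap each other, as in SESA3, SESA4 and SESA5, were each counted. CACGTG, which contains ACGT and reads the same on both strands, occurred in 5 members and 6.49% of windows, and ACGT in 6 members and 44.1% of windows. CRA1 held CATGCA at -181 and -164. CRC held it at -69, with ACGT at -209, -97 and -52. CRB held neither set of letters in this window. These matches describe the sequence and are not evidence of binding.

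**Figure D1:**
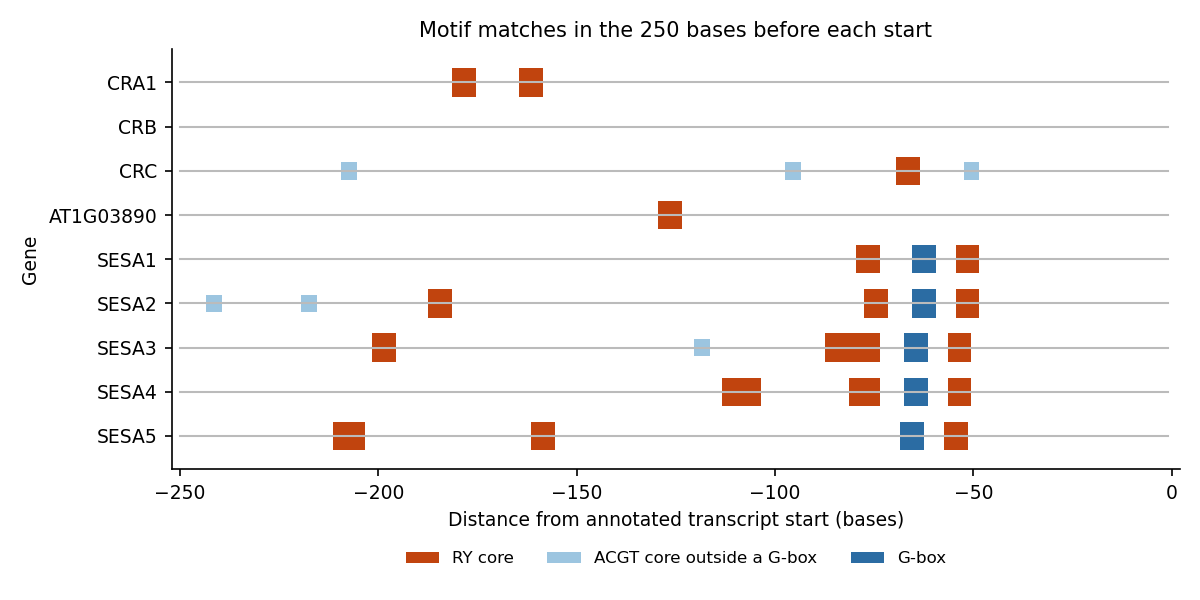
Positions of the RY core, the G-box and the ACGT core outside a G-box in the 250 bases before the annotated start of each gene, with distance from the start in bases on the x axis and 1 gene per line. The G-box of every 2S albumin begins between -68 and -65, with an RY core just after it, and CRB has no match.

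Transcripts of 8 of the 9 genes had lower point estimates in h1/H1 than in H1/H1 endosperm. The median log2 fold change of the members was -1.42, beside -0.02 over the 18951 genes tested, of which 51.9% were negative. None of the 9 was called, that is, had an adjusted p under 0.05 and differed at least 2-fold, by edgeR (quasi-likelihood test) or by DESeq2. The background of such calls was 0 of 18951 genes (0.0%) in edgeR, with 706 genes at an unadjusted p under 0.05, and 49 of 17848 genes (0.275%) in DESeq2. At an unadjusted p under 0.05, CRA1, CRC, SESA2 and SESA5 were lower, 4 of the 9 members, against 1.76% of all genes. In CRA1, CRC and SESA5 every h1/H1 library lay below every H1/H1 library, which is 3 of 9 members and was so for 8.18% of all genes. In bulk tissue, fewer cells of a type and less RNA per cell cannot be told apart. In what follows CPM are counts scaled to a common library size after TMM normalization, and adjusted p-values are from edgeR with Benjamini-Hochberg adjustment over all genes tested, where each of the 9 had the value 1.

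**Figure D2:**
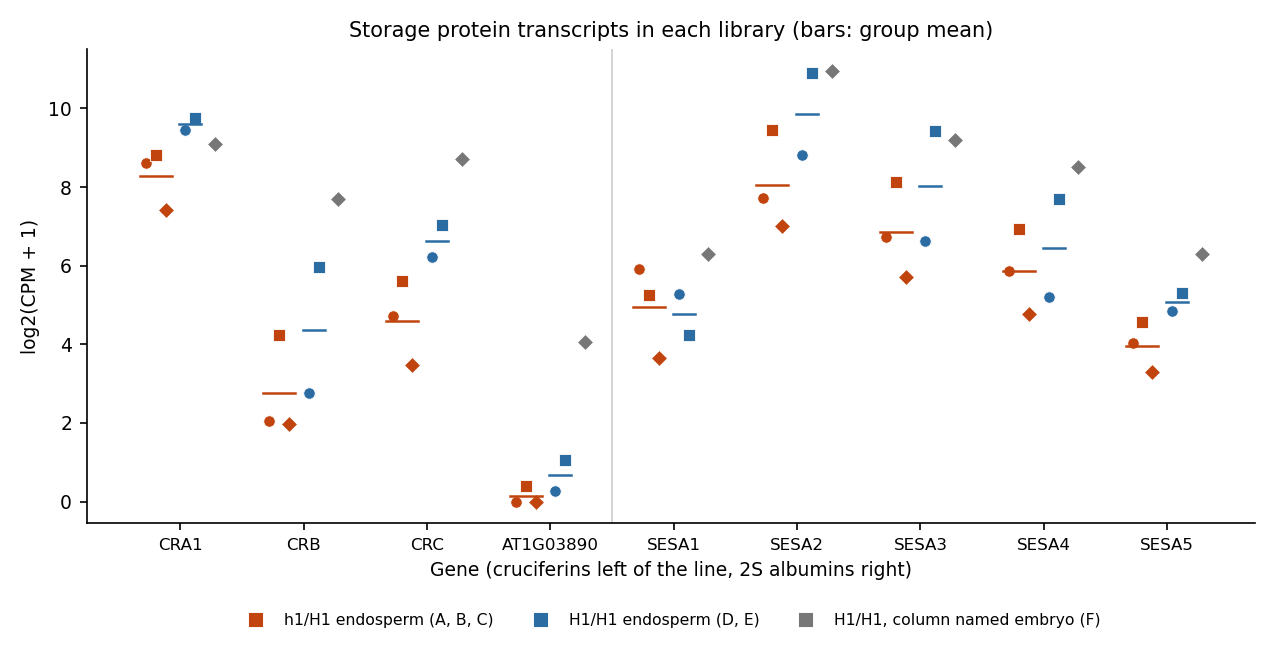
Level of each storage protein gene as log2(CPM + 1) in each library, with h1/H1 endosperm libraries in red (A circle, B square, C diamond), H1/H1 endosperm libraries in blue (D circle, E square) and F in grey, and horizontal bars at the group means of the log values. The endosperm groups are apart in CRA1, CRC and SESA5 and overlap in the other 6 genes.

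CRA1 encodes a major cruciferin subunit. It had 389, 450 and 171 CPM in the h1/H1 libraries A, B and C, against 697 and 864 CPM in the H1/H1 libraries D and E. All 3 h1/H1 values were below both H1/H1 values, and C was the lowest. The mean of the h1/H1 libraries was 336 ± 147 CPM (SD, n = 3) and that of the H1/H1 libraries 781 ± 118 CPM (SD, n = 2). The log2 fold change was -1.21 (SE 0.41, unadjusted p = 0.0174, adjusted p = 1 in edgeR). CRA1 ranked 255, 239 and 837 by CPM among all genes in A, B and C, against 110 and 101 in D and E. Leaving out any 1 endosperm library gave log2 fold changes between -1.48 and -0.90. RefSeq records a further 12S globulin copy beside CRA1 in the Ler genome. How its reads were counted was not tested.

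CRC, another cruciferin subunit gene, was at 25.6, 47.5 and 10.1 CPM in A, B and C, against 74.0 and 131 CPM in D and E. Here too the groups did not overlap, and the log2 fold change of -1.89 (SE 0.56, unadjusted p = 0.00933, adjusted p = 1 in edgeR) had the smallest unadjusted p of the 9 members. With 1 endosperm library left out it ranged from -2.52 to -1.42. The mean level was 27.7 ± 18.8 CPM over the h1/H1 libraries (SD, n = 3) and 103 ± 40.5 CPM over the H1/H1 libraries (SD, n = 2).

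CRB, the gene closest to CRA1 in sequence, had 3.14, 17.8 and 2.90 CPM in A, B and C, against 5.74 and 61.6 CPM in D and E. D lay below B, so the groups overlapped, and E was 10.7 times as high as D. The log2 fold change was -2.09 (SE 1.00, unadjusted p = 0.0695, adjusted p = 1 in edgeR), and it was 0.46 without E. AT1G03890 was close to absent. It had 0, 4 and 0 counts in A, B and C, against 4 and 21 counts in D and E. A count of 0 allows up to 3 counts, or 0.210 CPM in A and 0.181 CPM in C. With a mean of 5.8 counts in the endosperm libraries it passed the filter of 10 counts only through F, and its log2 fold change of -2.68 (SE 1.28) rests on these few reads, with -6.55 to -1.10 when 1 endosperm library was left out.

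SESA2 was the most abundant 2S albumin transcript. It was at 211, 695 and 127 CPM in A, B and C, against 446 and 1919 CPM in D and E. B exceeded D, so the groups overlapped. The log2 fold change was -1.78 (SE 0.77, unadjusted p = 0.0499, adjusted p = 1 in edgeR), and without E it was -0.37.

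SESA3, the closest copy of SESA2, had 105, 281 and 51.6 CPM in A, B and C, against 98.2 and 683 CPM in D and E. SESA4 had 57.2, 121 and 26.2 CPM in A, B and C, against 35.8 and 205 CPM in D and E. In both genes D lay among the h1/H1 libraries and E above all of them. The log2 fold changes were -1.42 (SE 0.83) for SESA3 and -0.82 (SE 0.75) for SESA4. Without E they were 0.57 for SESA3 and 0.93 for SESA4, so that the direction in these 2 genes came from 1 library.

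SESA5, the 2S albumin gene outside the cluster, was at 15.3, 22.8 and 8.87 CPM in A, B and C, against 27.8 and 38.8 CPM in D and E. Again no h1/H1 value reached an H1/H1 value, and the mean was 15.7 ± 6.97 CPM over the h1/H1 libraries (SD, n = 3) and 33.3 ± 7.77 CPM over the H1/H1 libraries (SD, n = 2). Its log2 fold change was -1.09 (SE 0.39, unadjusted p = 0.0240, adjusted p = 1 in edgeR), and -1.46 to -0.81 with 1 endosperm library left out.

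SESA1, at the other end of the cluster from SESA4, was the only member with a positive point estimate. It had 59.2, 37.3 and 11.6 CPM in A, B and C, against 37.9 and 17.9 CPM in D and E. The log2 fold change was 0.37 (SE 0.61), and it turned to -0.19 without A and -0.07 without E. SESA1 was also the only member that was lower in E than in D, at 0.473 times its level there.

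**Figure D3:**
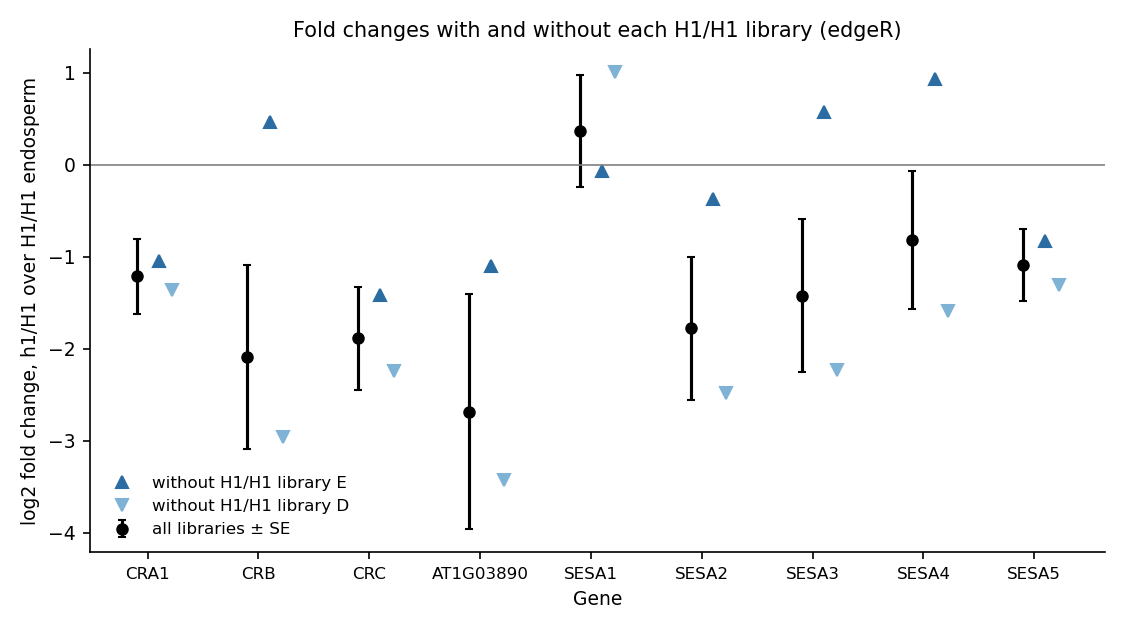
Log2 fold change of each gene, h1/H1 over H1/H1 endosperm (y axis), with all libraries (black circles, bars are ± SE from edgeR), without the H1/H1 library E (dark triangles pointing up) and without the H1/H1 library D (light triangles pointing down). CRA1, CRC, AT1G03890, SESA2 and SESA5 stay below 0 in all 3 fits, SESA1 lies on either side of 0, and CRB, SESA3 and SESA4 lie above 0 without E.

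Per kilobase of transcript, which allows genes to be compared with each other, SESA2 had the highest mean in both groups, 469 CPM per kb in h1/H1 and 1609 CPM per kb in H1/H1. SESA3 followed at 190 CPM per kb in h1/H1 and 509 CPM per kb in H1/H1, and CRA1 at 190 CPM per kb in h1/H1 and 440 CPM per kb in H1/H1. The SDs of SESA2 and SESA3 were wide, but within every endosperm library SESA2 lay above both SESA3 and CRA1. SESA3 lay above CRA1 in B and E and below it in A, C and D, so their order was not settled. SESA4 had 99.2 CPM per kb in h1/H1 and 175 CPM per kb in H1/H1, and SESA1 51.2 CPM per kb in h1/H1 and 39.7 CPM per kb in H1/H1. CRC, SESA5 and CRB lay between 4.88 and 18.9 CPM per kb in h1/H1 and between 20.6 and 57.2 CPM per kb in H1/H1. AT1G03890 was the lowest, at 0.0678 CPM per kb in h1/H1 and 0.426 CPM per kb in H1/H1.

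Summed over the 9 genes, storage protein transcripts took 0.0902%, 0.156% and 0.0440% of all counts in A, B and C, against 0.147% and 0.362% in D and E. B was above D. The h1/H1 libraries averaged 0.0968% ± 0.0564 (SD, n = 3) and the H1/H1 libraries 0.255% ± 0.152 (SD, n = 2), a difference of -0.158 percentage points (exact two-sided permutation test over libraries, p = 0.2, where 0.1 is the smallest p that 3 against 2 libraries allow). Without E the difference was -0.0506 percentage points.

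The family shares follow their most abundant members. CRA1 made up 93.1%, 87.3% and 92.9% of the cruciferin counts in A, B and C, against 89.7% and 81.7% in D and E. SESA2 made up 47.2%, 60.1% and 56.4% of the 2S albumin counts in A, B and C, against 69.1% and 67.0% in D and E. Cruciferins took 0.0435%, 0.0482% and 0.0198% of counts in A, B and C, against 0.0805% and 0.0977% in D and E. No h1/H1 share reached an H1/H1 share (difference -0.0520 percentage points, exact permutation p = 0.1, the smallest possible, and 0.2 after adjustment over the 2 families). The 2S albumins took 0.0467%, 0.108% and 0.0243% in A, B and C, against 0.0669% and 0.265% in D and E, and B was above D (difference -0.106 percentage points, exact permutation p = 0.3, adjusted 0.3). Without E the 2S albumin difference was -0.00725 percentage points, whereas the cruciferin difference was -0.0433. Whether the families differ from each other was not tested, and the members did not divide by family, since the cruciferins CRB and AT1G03890 overlapped between groups and the 2S albumin SESA5 did not. Counts of a cruciferin made up 48.2%, 30.8% and 44.9% of the storage protein counts in A, B and C, against 54.6% and 27.0% in D and E.

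**Figure D4:**
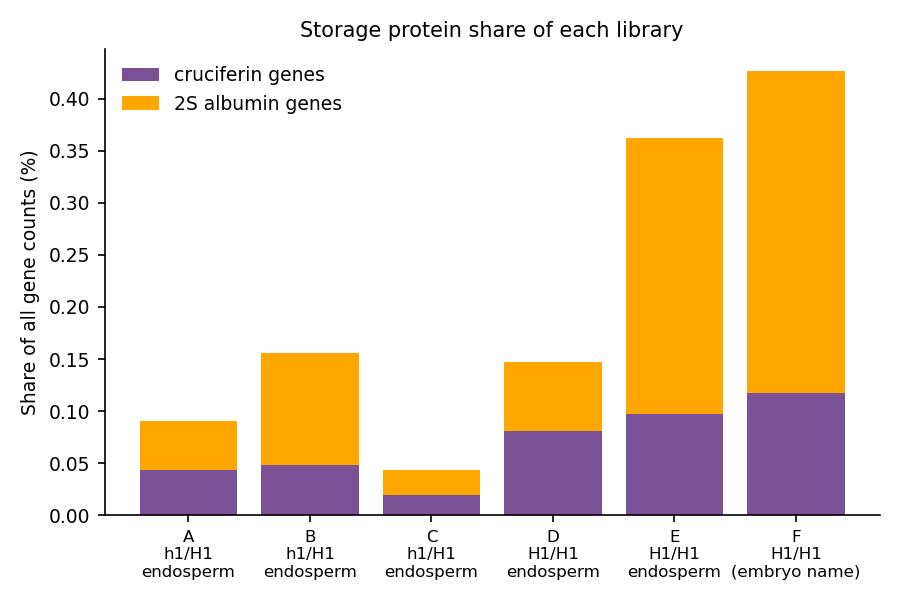
Share of all gene counts (%) taken by cruciferin genes (purple, lower part) and 2S albumin genes (orange, upper part) in each library. The cruciferin part is below 0.05% in the h1/H1 libraries A, B and C and above 0.08% in the H1/H1 libraries D and E, and the 2S albumin part of E exceeds that of D by more than the whole bar of D.

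Between libraries of 1 group most members moved in the same direction, but by unlike amounts. E was the highest endosperm library for 8 of the 9 (22.4% of all genes), and C was the lowest or tied for the lowest for 9 of 9 (14.4% of all genes). E over D was 1.24 for CRA1, 1.40 for SESA5 and 1.77 for CRC, but 4.30 for SESA2, 5.16 for AT1G03890, 5.71 for SESA4, 6.96 for SESA3 and 10.7 for CRB. The genes whose endosperm groups did not overlap are thus those with the smallest gap between D and E. The same genes ran together across the 5 endosperm libraries, with Pearson r of log2(CPM + 1) of 0.983 for CRA1 with CRC, 0.980 for CRA1 with SESA5 and 0.999 for CRC with SESA5. SESA3 with SESA4 reached 0.981 and CRB with AT1G03890 0.972. SESA1 had r between -0.25 and 0.35 with the others. These values rest on 5 points that share their depth and their genotype groups and are given as a description.

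Transcripts of other programmes also differed between D and E. The 5 heat stress genes examined, HSP101 and others, were all highest in E, where they summed to 2463 CPM, against 124 to 418 CPM in the other 4 endosperm libraries. All 5 had an unadjusted p under 0.05, edgeR called none of them and DESeq2 called 3. In 3 of them D also lay above all h1/H1 libraries. HSP17.6II was at 2.38, 0.309 and 1.39 CPM in A, B and C, against 21.7 and 126 CPM in D and E, and HSP22 and HSP70B were placed likewise. HSP101 and HSFA2 in D lay within the range of A, B and C. The 8 embryo markers summed to 9.99, 9.97 and 17.8 CPM in A, B and C, against 15.9 and 17.5 CPM in D and E, mostly from CUC1, and STM was at 0 counts in A, B and E. The 8 endosperm markers summed to 114, 64.3 and 88.5 CPM in A, B and C, against 104 and 60.6 CPM in D and E. The 9 seed coat markers summed to 6546, 5658 and 4466 CPM in A, B and C, against 4070 and 4444 CPM in D and E, mostly from TT10, and 6 of the 9 were lowest in E. DFR was at 500.4, 337 and 189 CPM in A, B and C, against 446 and 43.5 CPM in D and E. LDOX was at 550.3, 476 and 414 CPM in A, B and C, against 496 and 51.5 CPM in D and E. BAN was at 741, 680 and 392 CPM in A, B and C, against 605 and 151 CPM in D and E. TT10 and TTG2 were the only seed coat markers higher in E than in D, at 1.73 and 1.24 times their level in D. TT10 was at 4545, 3973 and 3321 CPM in A, B and C, against 2370 and 4101 CPM in D and E. The part of any of these in the storage protein values was not tested.

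Library F held the highest share of storage protein transcripts, 0.426% of its counts (Wilson 95% interval 0.423 to 0.429, counting error only). F exceeded all 5 endosperm libraries for 7 of the 9 members, which was so for 17.7% of all genes, and the exceptions were CRA1 (542 CPM) and SESA3 (589 CPM). CRB reached 208 CPM and CRC 415 CPM in F, 3.37 and 3.16 times their highest endosperm value. AT1G03890 had 312 counts, or 15.8 CPM, 14.6 times its highest endosperm value. The 2S albumins SESA1, SESA4 and SESA5 were at 77.1, 363 and 77.1 CPM, which is 1.30, 1.77 and 1.99 times the highest endosperm value. SESA2, at 1986 CPM, was 1.03 times its value in E. The balance between cruciferins therefore differed from that in the 5 endosperm libraries. There were 1.31 CRA1 counts per CRC count in F and 6.59 to 16.8 in those 5. F is a single library and no test was made.

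Reads that could be assigned to a parent were counted in a table of their own, which tells Col-0 (the mother's copies) from Ler by sequence differences. Only 3 members had Col-0 reads. The other 6 had 0 in every library, where the table gives them no information. CRA1 had 424, 447 and 313 Col-0 reads in A, B and C, against 551 and 572 in D and E. In proportion to all Col-0 reads the log2 fold change was -0.13 (SE 0.27, adjusted p = 0.983 in edgeR), and 0.072 without C. SESA4 had 134, 227 and 87 Col-0 reads in A, B and C, against 118 and 421 in D and E, and the estimate was -0.41 on the log2 scale (SE 0.53, adjusted p = 0.981 in edgeR), and 0.67 without E. Neither was called and both had an unadjusted p above 0.05, in a test that called 1 of 9779 loci (0.0102%). SESA3 had at most 12 Col-0 reads in an endosperm library and was not tested.

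Relative to its total counts, CRA1 had more Col-0 reads in h1/H1 endosperm. There were 76.2, 76.7 and 111 Col-0 reads per 1000 CRA1 counts in A, B and C, against 41.6 and 34.2 in D and E. All 3 h1/H1 ratios lay above both H1/H1 ratios. This ratio was formed after the values had been seen and joins 2 separate mappings, so it was given no test. For SESA4 the ratio was 164, 145 and 200 per 1000 counts in A, B and C, against 173 and 106 in D and E, and the groups overlapped. Ler reads were used here only for F, since those of the endosperm libraries were left out. In F, 95.7% of the 576 assigned CRA1 reads were from Col-0 (Wilson 95% interval 93.7 to 97.0). For SESA4 it was 98.3% of the 515 assigned reads (96.7 to 99.1). All loci together gave 82.1% in F. Of the 3341 loci with at least 100 assigned reads, 15.6% lay above CRA1 and 9.97% above SESA4. For its DNA methylation libraries the paper expected equal maternal and paternal reads from embryo and more maternal reads from endosperm. The RNA reads of F were not tested against this. The paper detected a modest seed coat enrichment in its dissected endosperm and embryo RNA libraries, with higher scores in endosperm. The 9 seed coat markers summed to 4517 CPM in F, against 4070 to 6546 CPM in the endosperm libraries. The seed coat is the mother's own tissue, so its RNA is also read as Col-0. What part of the Col-0 reads came from it was not tested.

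**Figure D5:**
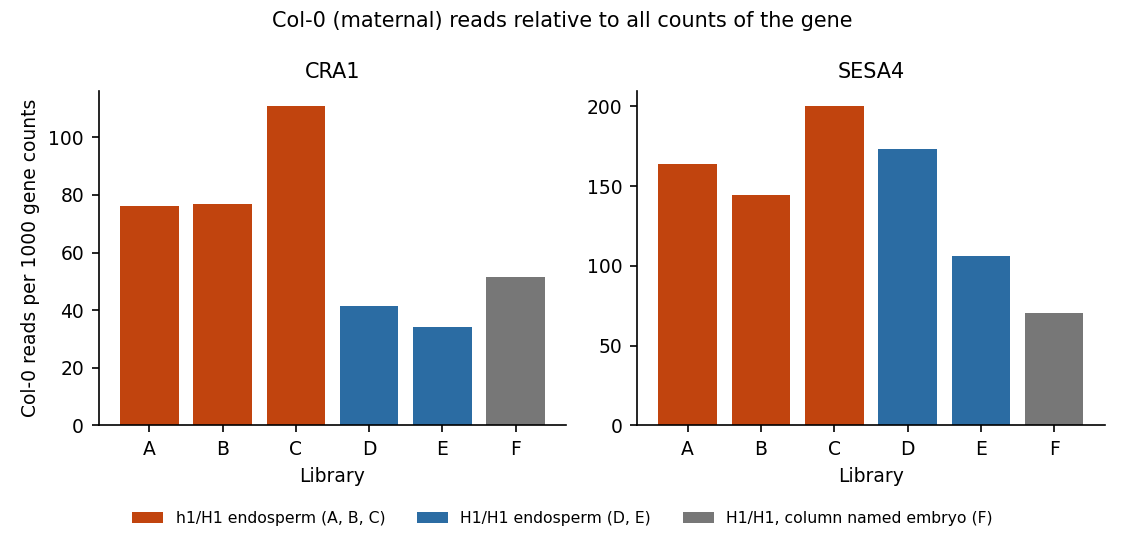
Col-0 reads per 1000 counts of the gene (y axis) for CRA1 and SESA4 in each library, h1/H1 endosperm in red, H1/H1 endosperm in blue and F in grey. For CRA1 the h1/H1 libraries lie between 76.2 and 111 and the H1/H1 libraries D and E at 41.6 and 34.2, and for SESA4 the groups overlap.

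The genes that act on storage proteins included none that passed the test. None of 14 transcriptional regulators was called by edgeR or DESeq2, and 11 had a negative estimate, with a median of -0.13. FUS3, a B3 domain activator of seed maturation, had 248, 340 and 219 CPM in A, B and C, against 297 and 292 CPM in D and E (log2 fold change -0.13, SE 0.28). ABI3, a further B3 domain activator, had a log2 fold change of -0.06 (SE 0.27), and VAL1, a repressor that binds RY elements, of -0.12 (SE 0.25). At an unadjusted p under 0.05, 1 regulator was lower, which is EEL, a bZIP factor named here after its value was seen. It had 68.6, 61.4 and 60.2 CPM in A, B and C, against 98.1 and 146 CPM in D and E, with an estimate of -0.94 on the log2 scale (SE 0.26, adjusted p = 1 in edgeR). In 4 of the 14 regulators, EEL among them, every h1/H1 library lay below every H1/H1 library, which was so for 8.18% of all genes. LEC2 was placed the other way, at 20.0, 17.8 and 17.5 CPM in A, B and C, against 14.5 and 7.13 CPM in D and E.

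None of 11 genes for sorting and processing of storage proteins was called by either tool or had an unadjusted p under 0.05, and 7 had a negative estimate, with a median of -0.13. The most abundant were the aspartic protease PASPA1 (log2 fold change -0.13, SE 0.35) and the vacuolar processing enzymes DELTA-VPE (0.14, SE 0.49) and GAMMA-VPE (0.18, SE 0.28). DELTA-VPE, known from the seed coat, spanned 628 to 1732 CPM within h1/H1 and 635 to 1359 CPM within H1/H1.

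Of the 9 other seed storage and oil body genes, none was called by either tool, 7 were negative and the median log2 fold change was -0.77. OLEO1, the main oleosin of the oil body coat, had 430, 1243 and 450 CPM in A, B and C, against 614 and 2345 CPM in D and E (log2 fold change -1.06, SE 0.63). AT3G01570, an oleosin family gene, had 353, 545 and 310 CPM in A, B and C, against 316 and 894 CPM in D and E (-0.59, SE 0.45). E was the highest endosperm library for 7 of the 9, which was so for 22.4% of all genes. B was the highest h1/H1 library for 8 of the 9, and the share of all genes for which this holds was not computed. The vicilin-like AT4G36700, of another globulin family, was at 687, 745 and 646 CPM in A, B and C, against 600 and 674 CPM in D and E (0.12, SE 0.26). Of the list, 1 gene was lower at an unadjusted p under 0.05, the vicilin-like AT2G18540 (-1.18, SE 0.39, adjusted p = 1 in edgeR), named after its value was seen.

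Outside these lists, genes whose log2(CPM + 1) was most like the mean of the 9 members over the 6 libraries included AT2G28200 (Pearson r = 0.988), AT1G22270 (0.984), ST2B (0.983) and GRF8 (0.981), out of 18884 genes compared. AT2G28200 was at 17.4, 22.7 and 14.7 CPM in A, B and C, against 18.4 and 27.4 CPM in D and E, and was highest in F. Pearson r does not measure the size of a change. AT1G22270 spanned 14.4 to 21.1 CPM, GRF8 75.5 to 118 CPM and ST2B 0.241 to 5.27 CPM over the 6 libraries. The mean log2(CPM + 1) of the members spanned 4.15 in C to 7.87 in F. In all, 26 genes had r above 0.95. The 6 points share their depth and groups, so the values are a description.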

How the data were processed

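Total RNA of dissected endosperm and embryo was made into Ovation RNA-seq V2 libraries. The authors trimmed reads with fastp, assigned them to TAIR10 transcripts with Salmon 1.9.0 and deposited whole-number values per gene. These are labelled as normalized counts, but all were whole numbers and they were treated here as counts. Whether they had been scaled before was not tested. How transcripts were summed to genes, and the use of strand, are not given in the sources used here. The deposited Col-0 and Ler read counts were made apart, on the cDNA sequences of both parents (TAIR8). Left out were 5 columns of counts, whose names tie them to no cross or tissue, and 5 columns of Ler reads from endosperm, since no group could take more columns than it has samples.

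Counts were normalized by TMM and tested with edgeR 4.0.16 (quasi-likelihood, R 4.3.3) with F as a group of its own, after genes averaging under 10 counts were removed. Genes were called at a Benjamini-Hochberg adjusted p under 0.05 and a 2-fold change. Col-0 reads were tested in the same way over the 5 endosperm libraries, which held 705347 to 1013458 such reads. Standard errors are the absolute log2 fold change over the square root of the quasi-likelihood F statistic, which is not library F. Shares were compared by an exact permutation test over libraries. Alternatives were DESeq2 1.42.0, limma 3.58.1 with pseudocounts of 0.1, 1 and 5, other normalizations (RLE, or without the 9 genes), no filter, a minimum mean of 50, the endosperm libraries alone and each library left out. The scripts were tested on simulated data. Of 27588 gene identifiers, 27390 matched TAIR10.1, from which RefSeq sequences were read; motif positions are 1-based. Named are all 9 members, called genes and up to 3 genes with the highest mean count of each list of regulators, sorting and processing genes and other storage genes, plus the 5 genes most like the members, of which 1 is not reported here. Members and lists were chosen with earlier results of these data known. Intervals cover counting error only.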

Additional observations from a re-analysis of the deposited data

Results flagged for a closer look

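In 7 members the library F, which enters no comparison, had a higher level than both H1/H1 endosperm libraries. These were CRB at 208 CPM, CRC at 415 CPM, AT1G03890 at 15.8 CPM, SESA1 at 77.1 CPM, SESA2 at 1986 CPM, SESA4 at 363 CPM and SESA5 at 77.1 CPM. AT1G03890 passed the filter only through F, so its place here was fixed by the filter. F is 1 library, so these differences were not tested, and whether its tissue or another property goes with them was not tested.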

How the results depend on the processing

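No member was called under any alternative, and all 9 kept the sign of their fold change under DESeq2, limma, both other normalizations, both other filters and the endosperm libraries alone, except that AT1G03890 fell below the filter in the last. With limma and pseudocounts of 0.1, 1 and 5 the fold changes of low genes shrank, to -1.92, -0.54 and -0.14 for AT1G03890 and to -1.76, -1.61 and -1.23 for CRB. Leaving out 1 library at a time turned the sign of some log2 fold changes. SESA1 then ranged from -0.19 to 1.01 (-0.19 without A, -0.07 without E). CRB ranged from -3.48 to 0.46, SESA3 from -2.32 to 0.57 and SESA4 from -1.59 to 0.93, and these 3 were positive only without E. The Col-0 reads of CRA1 ranged from -0.31 to 0.072 (positive without C) and those of SESA4 from -1.03 to 0.67 (positive without E). Over all genes the count called was 49 in DESeq2 and 0 to 109 with 1 library left out (109 without D, 9 without E). On Col-0 reads it was 12 in DESeq2, 80 without a filter and 0 to 40 with 1 library left out (40 without D, 16 without E, 0 without A and without C). Leaving out D or E leaves 1 H1/H1 library, assumed to vary like the other groups. The cause of these changes was not tested. Of 213 alternative values, 197 kept their direction and their side of the threshold, 7 turned their sign and 9 counts moved. No share difference turned its sign. No paired analysis was possible because the columns carry no replicate numbers. With 3 against 2 libraries the exact permutation test of a share cannot go below p = 0.1, and AT1G03890 is limited by its few counts.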
